A study of Mus musculus with 2 samples.

Results

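Cathepsins and legumain are proteases of lysosomes and endosomes. The 10 genes described here, Ctsa, Ctsb, Ctsd, Ctse, Ctsh, Ctsk, Ctsl, Ctss, Ctsz and Lgmn, were chosen by exact match of their symbols in the deposited table, and all 10 were found among its 23988 genes. The data came from untransformed myeloid progenitors of C57BL/6 mice. Lineage-depleted (Lin-) cells of the bone marrow had been kept for 7 days in medium with IL3, SCF and IL6 and received no treatment. The series title names leukaemia cells driven by HOXA9 and MEIS1, which were not analysed here. The labels give 1 group of 2 libraries, called replicate 2 and replicate 1 below, and leave unsaid if each had its own culture or animal. The spread between them may therefore be technical.

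The enzymes are made as inactive precursors, carry mannose 6-phosphate tags that direct most of them to lysosomes, and are activated by cleavage at acid pH. They fall into catalytic classes: cysteine cathepsins (Ctsb, Ctsh, Ctsk, Ctsl, Ctss, Ctsz), aspartic cathepsins (Ctsd, Ctse), a serine carboxypeptidase (Ctsa) and legumain (Lgmn), a cysteine protease of another fold that cuts after asparagine. In macrophages and other antigen-presenting cells they digest engulfed protein and trim the invariant chain from MHC class II molecules.

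All 10 genes were expressed in both libraries, most of them at high levels. All 10 stood at 1 RPKM or more in both, against 43.5% of the 23988 genes. RPKM divides the reads of a gene by its length and by the size of the library. Their median level was 175 RPKM in replicate 2 and 69.3 RPKM in replicate 1, beside 13.2 and 13.4 RPKM for all genes averaging 1 RPKM or more. Together the members held 0.445% of the summed RPKM of replicate 2 and 0.242% of that of replicate 1. The levels spanned 28.8-fold between the highest and the lowest member in replicate 2 and 184-fold in replicate 1. Levels of different genes can be compared only as far as the gene lengths behind the RPKM values, which no source used here gives, are right.

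**Figure D1:**
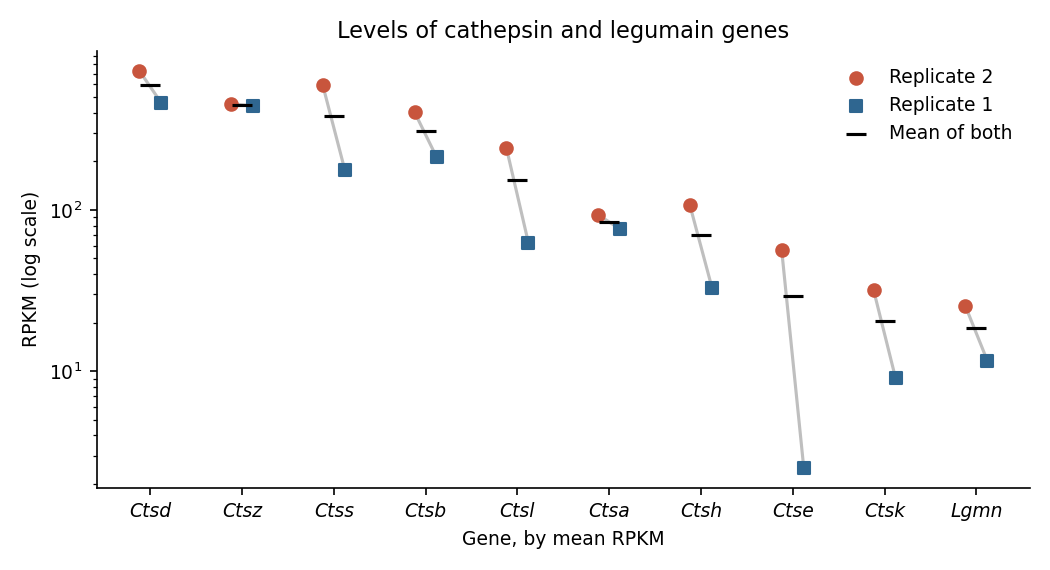
RPKM (log scale) of each cathepsin gene and of Lgmn in replicate 2 (circles, left) and replicate 1 (squares, right), with the mean of both as a bar, ordered by that mean. Ctsz is nearly level at 455 and 441 RPKM, whereas Ctse lies at 56.0 and 2.51 RPKM.

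All 10 genes were higher in replicate 2 than in replicate 1, but by very different amounts. Among all 10896 genes averaging 1 RPKM or more, 44.1% were higher in replicate 2. At least a 2-fold excess in replicate 2 was found for 6 members (Ctse, Ctsl, Ctsk, Ctss, Ctsh and Lgmn), against 7.65% of those genes. None of the 10 was at least 2-fold lower in replicate 2, against 1.24% of the genes. With 1 RPKM added to each value, the log2 ratio of replicate 2 over replicate 1 had a median of 1.36 over the 10 members and of -0.05 over all genes averaging 1 RPKM or more. Each side of this comparison is 1 library, so the difference has no replicate check and no test was run. In these bulk libraries more cells of a type and more RNA per cell cannot be told apart.

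**Figure D2:**
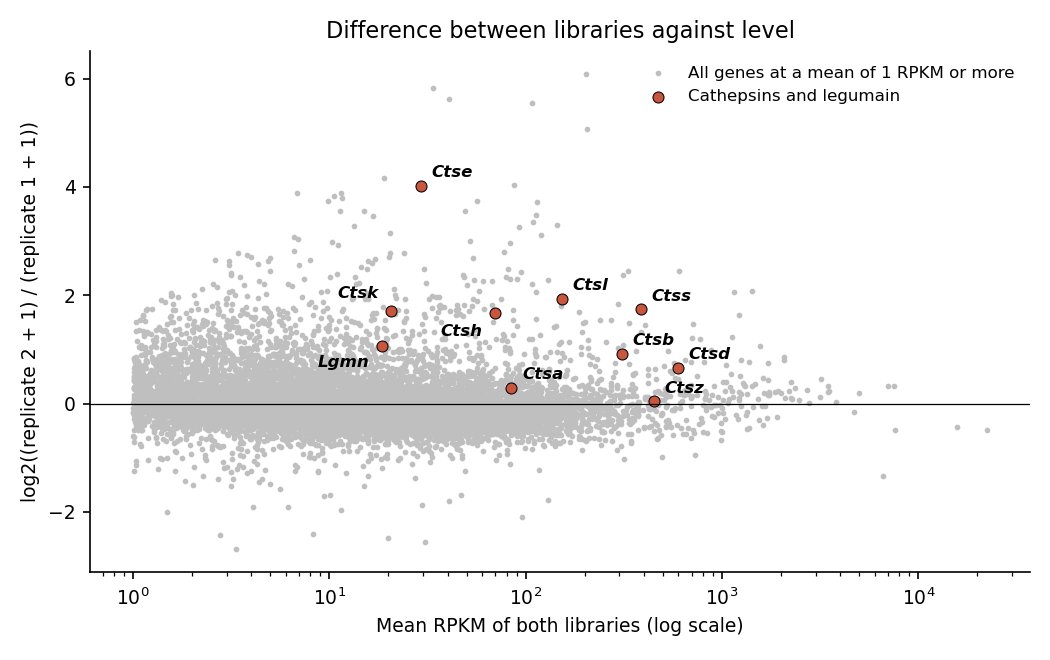
The log2 ratio of replicate 2 over replicate 1, with 1 RPKM added to each value, against the mean RPKM of both libraries (log scale), for all 10896 genes averaging 1 RPKM or more (grey) and the 10 members (named). The members run from 0.04 for Ctsz to 4.02 for Ctse, all above the line of no difference.

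The promoters were inspected to describe what the members share beyond the symbols by which they were chosen. RefSeq windows of 300 bases, 250 before and 50 after an annotated start, were at hand in build GRCm38.p6 for 7 members, with 2 starts each for Ctsa and Lgmn. Ctsb, Ctse and Ctsh had no window in that table. The windows were searched on both strands for CACGTG, the palindromic E-box that forms the core of the sites bound by the lysosomal regulator TFEB and its relatives, for the 10-base palindromic CLEAR consensus of those factors, which contains it, and for GAGGAAGT, a core of sites bound by ETS factors such as PU.1. CACGTG was present in 4 of the 9 member windows, those of Ctsd, Ctsl, the second start of Ctsa and 1 start of Lgmn, against 7.15% of all 32851 windows. The exact CLEAR consensus was in none of the 9, against 0.326% of all. A string this rare is unlikely in 9 windows, and sites that differ from it by a base were not counted over all windows. In the sequences below, 3 E-boxes with their flanks differ from it by 1 base. They are the one 98 bases before the start of Ctsd and those of Ctsa. The absence of the exact string therefore does not show that the promoters lack such sites. GAGGAAGT was in 1, that of Ctss on the strand opposite to the gene, against 3.20% of all. The 5 windows with a match are shown from 250 bases before the start to 20 bases after it, 5′ to 3′ on the strand of the gene, with the matches in capitals. They lie at chr7:142387808-142388077 (minus strand, Ctsd), chr13:64370501-64370770 (minus strand, Ctsl), chr2:164833523-164833792 (plus strand, Ctsa), chr12:102439073-102439342 (minus strand, Lgmn) and chr3:95526536-95526805 (plus strand, Ctss).
Ctsd: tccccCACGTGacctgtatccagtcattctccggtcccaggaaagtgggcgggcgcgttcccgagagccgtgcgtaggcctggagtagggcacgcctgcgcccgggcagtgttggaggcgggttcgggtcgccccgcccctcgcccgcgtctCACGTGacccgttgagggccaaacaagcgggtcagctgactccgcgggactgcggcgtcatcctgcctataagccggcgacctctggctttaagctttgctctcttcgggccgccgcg
Ctsl: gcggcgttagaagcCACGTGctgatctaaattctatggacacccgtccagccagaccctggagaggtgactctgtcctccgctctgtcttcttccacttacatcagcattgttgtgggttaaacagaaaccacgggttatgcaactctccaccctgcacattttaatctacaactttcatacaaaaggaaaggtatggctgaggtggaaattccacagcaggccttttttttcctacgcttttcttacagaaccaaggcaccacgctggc
Ctsa: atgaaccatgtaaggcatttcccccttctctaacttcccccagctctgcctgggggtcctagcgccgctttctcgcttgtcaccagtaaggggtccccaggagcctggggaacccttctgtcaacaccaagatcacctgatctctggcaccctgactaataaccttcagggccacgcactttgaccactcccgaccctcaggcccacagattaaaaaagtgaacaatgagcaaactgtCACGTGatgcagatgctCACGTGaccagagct
Lgmn: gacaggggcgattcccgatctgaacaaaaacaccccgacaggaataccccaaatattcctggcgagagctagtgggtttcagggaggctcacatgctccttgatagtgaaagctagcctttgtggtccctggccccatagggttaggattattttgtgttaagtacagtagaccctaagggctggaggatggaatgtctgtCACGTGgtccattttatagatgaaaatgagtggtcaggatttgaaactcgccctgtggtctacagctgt
Ctss: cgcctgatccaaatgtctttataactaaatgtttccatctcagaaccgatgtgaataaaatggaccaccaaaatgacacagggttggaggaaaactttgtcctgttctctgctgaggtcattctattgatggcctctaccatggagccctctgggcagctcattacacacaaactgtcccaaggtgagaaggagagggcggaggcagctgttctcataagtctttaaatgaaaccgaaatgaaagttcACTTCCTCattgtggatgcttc
In Ctsd the E-boxes began 245 and 98 bases before the start, and in Ctsl the E-box began 236 bases before it. In Ctsa they began 12 bases before and 5 bases after the second start. In Lgmn the E-box began 49 bases before the start shown. The 4 genes with an E-box were 1.23-fold (Ctsa), 1.58-fold (Ctsd), 2.18-fold (Lgmn) and 3.88-fold (Ctsl) higher in replicate 2, and the 3 without one 1.03-fold (Ctsz), 3.35-fold (Ctss) and 3.53-fold (Ctsk), so the sets overlapped. A match is a string of letters and was not tested as a binding site.

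Of the aspartic cathepsins, Ctsd was the highest of all 10 members in both libraries, and Ctse differed most between them. Ctsd encodes cathepsin D, an abundant endopeptidase of lysosomes. It stood at 730 RPKM in replicate 2 and 461 RPKM in replicate 1, rank 119 and rank 183 of all genes, and was 1.58-fold higher in replicate 2. Ctse encodes cathepsin E, an endosomal relative found in cells of the stomach and of the immune system. It stood at 56.0 RPKM in replicate 2 and 2.51 RPKM in replicate 1. It was the eighth highest of the 10 members in replicate 2 and the lowest in replicate 1. The values correspond to at least 3152 reads in replicate 2 and 147 reads in replicate 1, the smallest whole read numbers that fit the steps of the table. Since true read numbers are these or whole multiples of them, intervals from them are the widest that binomial counting of independent reads allows. The fold difference was 22.3 (95% interval 18.9 to 26.5, exact binomial, counting error only), and 0.303% of genes averaging 1 RPKM or more had as large an excess in replicate 2.

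Among the cysteine cathepsins with broad endopeptidase activity, Ctss and Ctsl differed more between the libraries than Ctsb. Ctss encodes cathepsin S, which removes the last part of the invariant chain from MHC class II in antigen-presenting cells. It stood at 593 RPKM in replicate 2, where it was the second highest member, and at 177 RPKM in replicate 1, where it was the fourth. The difference was 3.35-fold (95% interval 2.98 to 3.78, counting error only). Ctsl encodes cathepsin L, a strong lysosomal endopeptidase that has the same role for the invariant chain in the thymic cortex. It stood at 243 RPKM in replicate 2 and 62.6 RPKM in replicate 1, a 3.88-fold difference (3.66 to 4.11). Ctsb encodes cathepsin B, which cuts within chains and also removes dipeptides from their ends. It stood at 403 RPKM in replicate 2 and 212 RPKM in replicate 1, a 1.90-fold difference. The read numbers of Ctsb and Ctsd were too large to be read uniquely from the table, and no counting interval is given for either.

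Ctsk was low among the members and differed about as much as Ctss. Ctsk encodes cathepsin K, the collagen-degrading protease for which osteoclasts are best known. It stood at 32.0 RPKM in replicate 2 and 9.07 RPKM in replicate 1, a 3.53-fold difference. Its smallest fitting read numbers, 78 and 23, gave a wide 95% interval of 2.19 to 5.88. True read numbers may be large multiples of these. The width is therefore an upper limit for binomial counting of independent reads and does not measure the counting error of Ctsk. Of 8 osteoclast marker genes, 4 were at 1 RPKM or more in both libraries, and the 8 together had a summed level of 183 RPKM in replicate 2 and 49.5 RPKM in replicate 1. The 4 were Mmp9, Atp6v0d2, Acp5 and Nfatc1, which other myeloid cells express too. Mmp9 alone held 134 RPKM of the sum in replicate 2 and 25.7 RPKM of that in replicate 1. It is also counted below among the secondary granule markers of neutrophils. Calcr, the calcitonin receptor gene of mature osteoclasts, was listed at 0 in both. The fusion genes Dcstamp and Ocstamp stood at 1.42 and 0.442 RPKM in replicate 2, against 0.111 and 0.0645 RPKM in replicate 1. Oscar, a receptor gene of osteoclasts, stood at 0.0887 RPKM in replicate 2 and 0.578 RPKM in replicate 1.

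Of the cysteine cathepsins that trim chain ends, Ctsh differed between the libraries and Ctsz hardly at all. Ctsh encodes cathepsin H, mainly an aminopeptidase. It stood at 107 RPKM in replicate 2 and 32.9 RPKM in replicate 1, a 3.24-fold difference (95% interval 3.01 to 3.48, counting error only). Ctsz encodes cathepsin Z, also called X, which removes single residues from the carboxyl end. It stood at 455 RPKM in replicate 2 and 441 RPKM in replicate 1, or 448 ± 9.65 RPKM (SD, n = 2). Its fold difference of 1.03 had an interval of 0.982 to 1.08. The interval rests on the smallest fitting read numbers, 3229 in replicate 2 and 3257 in replicate 1. Multiples of these numbers would narrow it, so it does not settle whether Ctsz differed between the libraries. Ctsz was the third highest member in replicate 2 and the second in replicate 1.

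Ctsa and Lgmn, the members outside the papain-like and pepsin-like families, were of moderate and low level. Ctsa encodes the serine carboxypeptidase that also protects beta-galactosidase and neuraminidase in the lysosome. It stood at 93.3 RPKM in replicate 2 and 75.9 RPKM in replicate 1, a 1.23-fold difference (95% interval 1.18 to 1.28, counting error only). Lgmn, whose product processes several cathepsins to their mature form, stood at 25.4 RPKM in replicate 2 and 11.6 RPKM in replicate 1, a 2.18-fold difference (2.02 to 2.37).

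The order of the levels was only partly shared. By mean RPKM it ran Ctsd, Ctsz, Ctss, Ctsb, Ctsl, Ctsa, Ctsh, Ctse, Ctsk and Lgmn. Of the 9 pairs of neighbours in this order, 3 kept it in both libraries (Ctsd over Ctsz, Ctsb over Ctsl, Ctsh over Ctse). None of the 9 gaps, on the log2(RPKM + 1) scale, exceeded the larger SD of the pair. That SD is of 1 gene over the 2 libraries and includes any excess in replicate 2 that the pair shared. The spread of the gap within libraries was not computed, so this comparison does not show that neighbours were alike. Across wider steps the levels did not overlap, since the lowest value of Ctsd, Ctsz, Ctss and Ctsb in either library, 177 RPKM, lay above the highest value of Ctse, Ctsk and Lgmn, 56.0 RPKM.

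By catalytic class, the cysteine cathepsins made up most of the summed level in both libraries. Their 6 genes summed to 1833 RPKM in replicate 2 and 935 RPKM in replicate 1, which was 64.9 ± 2.85% of the members' total (SD, n = 2). The aspartic pair summed to 786 RPKM in replicate 2 and 464 RPKM in replicate 1, or 28.7% and 31.2% of the total, nearly all of it Ctsd. Ctsa held 4.26 ± 1.20% and Lgmn 0.855 ± 0.103%. The share of Ctsa was 3.41% in replicate 2 and 5.11% in replicate 1, while the members' total was 1.84-fold higher in replicate 2.

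**Figure D3:**
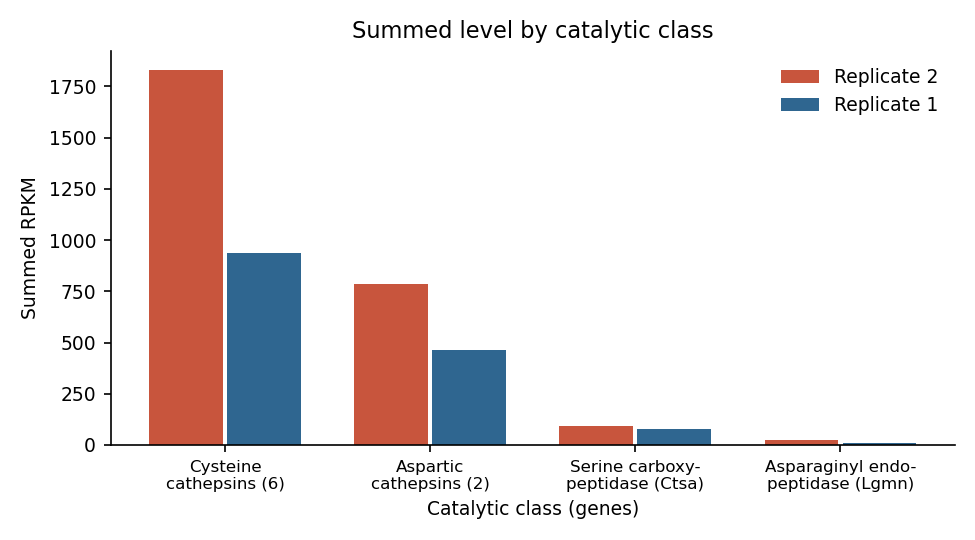
Summed RPKM of the genes of each catalytic class in replicate 2 (left bars) and replicate 1 (right bars). The cysteine cathepsins reach 1833 and 935 RPKM and the aspartic cathepsins 786 and 464 RPKM.

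Other cathepsin genes were few. Of 13 further genes, 3 were at 1 RPKM or more in both libraries. Ctsg, a serine protease of neutrophil granules despite its name, stood at 508 RPKM in replicate 2 and 753 RPKM in replicate 1. Ctsc, the activator of the granule serine proteases, stood at 98.4 and 58.3 RPKM, and Ctso at 12.4 and 6.77 RPKM. None of these 3 differed 2-fold. Cts8, Ctsf and Ctsw were under 1 RPKM in both libraries. The remaining 7 genes, of the rodent placental group (Ctsj, Ctsm, Ctsq, Ctsr, Cts3, Cts6 and Cts7), were listed at 0 in both libraries.

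Other lists of lysosomal genes had median differences between the libraries closer to 0. Of 33 other lysosomal hydrolases and activators, all at 1 RPKM or more in both libraries, 21 were higher in replicate 2. Of the 33, 5 were at least 2-fold higher (Psap, Gm2a, Acp5, Ids and Sgsh) and 1 at least 2-fold lower (Galc). Their median log2 ratio was 0.26. Among all genes averaging 1 RPKM or more, 44.1% were higher in replicate 2, 7.65% at least 2-fold higher and 1.24% at least 2-fold lower. Psap, the precursor of the saposins, which cathepsin D helps to process, led the 33 at 494 RPKM in replicate 2 and 176 RPKM in replicate 1. Next came Hexa, a subunit of beta-hexosaminidase, at 272 RPKM in replicate 2 and 227 RPKM in replicate 1. The vacuolar proton pump, which makes the lysosome acid, had a median log2 ratio of -0.19 over 17 genes, none of them 2-fold different, and was led by Atp6ap2, Tcirg1 and Atp6v1f. Genes of mannose 6-phosphate tagging and sorting, led by Sort1, M6pr and Nagpa, stood at -0.23 over 7 genes, with Igf2r, a receptor for the tag, as the 1 gene past 2-fold, at 4.46 RPKM in replicate 2 and 0.573 RPKM in replicate 1. Genes of lysosomal membrane proteins, led by Laptm5, Cd63 and Lamp1, stood at 0.04 over 8 genes, with Cd68 alone past 2-fold. Among the genes for MITF and its relatives, which act on lysosomal genes, Mitf was 2.06-fold higher in replicate 2, Tfec stood at 45.8 RPKM in replicate 2 and 95.7 RPKM in replicate 1, and Tfe3 and Tfeb differed by less than 2-fold.

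Inhibitors of the cysteine cathepsins, the stefins and cystatins, had a summed level of 1991 RPKM in replicate 2 and 1595 RPKM in replicate 1, beside 1833 and 935 RPKM for the 6 cysteine cathepsins. Of 8 inhibitor genes, 7 were at 1 RPKM or more in both libraries, with a median log2 ratio of 0.11. Cst3, the secreted cystatin C, stood at 701 RPKM in replicate 2 and 357 RPKM in replicate 1, and Stfa2l1 at 373 and 528 RPKM. Stfa3 was 3.59-fold higher in replicate 2, and Stfa1 lay the other way at 58.2 RPKM in replicate 2 and 203 RPKM in replicate 1. Stefin A genes resemble each other closely and can take each other's reads, which makes single values uncertain.

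Marker genes of several myeloid cell types differed between the libraries together with the cathepsins. The log2 ratio of macrophage markers had a median of 1.55, and each of the 11 genes found was higher in replicate 2, 7 of them past 2-fold. Their summed level was 2719 RPKM in replicate 2 and 802 RPKM in replicate 1, led by Lyz2, and none of the 11 was at 0. Monocyte markers stood at 1.82 with 4 of 6 past 2-fold (F13a1, Ccr2, Cd14 and Nr4a1) and summed levels of 1363 RPKM in replicate 2 and 688 RPKM in replicate 1 over 7 genes, led by Ly6c2. Genes of MHC class II, led by Cd74, H2-Aa and H2-Ab1, stood at 2.13 with 8 of 8 past 2-fold and summed levels of 1277 RPKM in replicate 2 and 187 RPKM in replicate 1. Cd74, the invariant chain that cathepsin S cleaves, stood at 560 RPKM in replicate 2 and 102 RPKM in replicate 1, so its level was 0.945 of that of Ctss in replicate 2 and 0.576 in replicate 1. Mast cell markers stood at 5.58, with 5 of 6 past 2-fold (Cpa3, Mcpt2, Cma1, Tpsb2 and Mcpt4) and summed levels of 1351 RPKM in replicate 2 and 257 RPKM in replicate 1 over 8 genes, of which Mrgprb2 was listed at 0 in replicate 1. Basophil markers stood at 1.23 with 2 of 3 past 2-fold (Mcpt8 and Cd200r3) and summed levels of 1979 RPKM in replicate 2 and 1004 RPKM in replicate 1. Secondary granule markers of neutrophils stood at 1.06 with 4 of 7 past 2-fold (Camp, Mmp8, Retnlg and Mmp9) and summed levels of 12502 RPKM in replicate 2 and 9136 RPKM in replicate 1, led by Ngp. Primary granule markers stood at -0.45 over 5 genes, with none past 2-fold and summed levels of 4088 RPKM in replicate 2 and 5390 RPKM in replicate 1, led by Mpo. The part of these cell types in the differences of the cathepsin genes was not tested.

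Markers of other cells were low, with the exception of Tfrc and Pecam1. Among 6 dendritic cell markers Itgax alone was at 1 RPKM or more in both libraries, at 9.74 RPKM in replicate 2 and 2.61 RPKM in replicate 1. No B cell marker of 5 and no T or NK cell marker of 6 reached 1 RPKM in either library. Cd79a and Cd8a were the highest of them, with Ebf1, Pax5, Ms4a1, Cd3e, Cd4 and Ncr1 listed at 0 in both libraries. Tfrc, at 441 RPKM in replicate 2 and 594 RPKM in replicate 1, was the erythroid marker at 1 RPKM or more in both, and Pecam1, at 154 and 194 RPKM, the stromal and endothelial one. Both are also expressed by other blood cells.

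**Figure D4:**
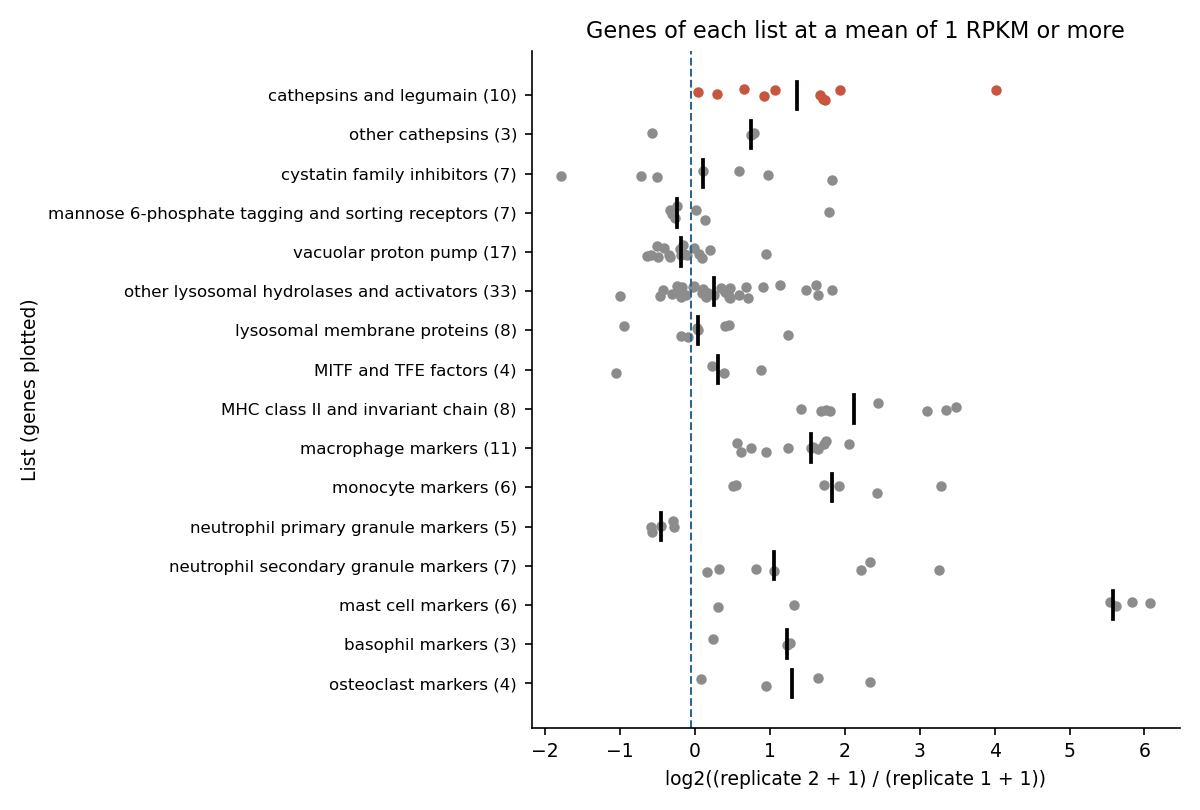
The log2 ratio of replicate 2 over replicate 1, with 1 RPKM added to each value, for each gene averaging 1 RPKM or more in the members (top) and 15 other lists. Black bars are list medians, and the dashed line is the median of all such genes, -0.05. The members' median is 1.36, the proton pump's -0.19, and that of MHC class II genes 2.13.

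Exons of neighbouring genes overlap some members in the GENCODE vM21 annotation. The annotation and strand setting of the read counting are not given. Reads of an overlap may thus have been added to a value or left out of it. Pltp and Neurl2 on the opposite strand cover 13.5% and 8.82% of the exon bases of Ctsa, with levels of 5.94 RPKM (Pltp) and 0.748 RPKM (Neurl2) in replicate 2, against 0.338 RPKM and 0.462 RPKM in replicate 1. Fdft1 on the opposite strand covers 16.3% of those of Ctsb and stood at 44.8 RPKM in replicate 2 and 73.3 RPKM in replicate 1. Gm49369 covers 31.5% of those of Ctsd on the same strand, and the antisense gene Gm47123 covers 28.2% of those of Ctsl, beside 6.40% shared with the pseudogene Gm49230. No level was listed for Gm49369, Gm47123 or Gm49230. Nelfcd overlaps Ctsz by 10 bases. Ctse, Ctsh, Ctsk, Ctss and Lgmn overlap no other exon there.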

How the data were processed

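Per the labels' protocols, total RNA was purified with an RNeasy kit and DNase, and libraries were made with a TruSeq RNA kit. The authors deposited RPKM values in 1 column for each of 2 libraries. Trimmomatic 0.32, TopHat2, HTSeq, edgeR and build mm9 are named in the submitters' processing notes. No source used here gives their settings, the annotation, the gene lengths or the read totals. Of 24015 rows, 27 named like dates (0.109% of summed RPKM in each library) were left out. In 466 genes the RPKM of replicate 1 was 0.962 times that of replicate 2, the value of equal read numbers, so this is the ratio of effective library sizes (replicate 2 over replicate 1). With it, the smallest whole read numbers behind each pair of RPKM values were found and used where fewer than 0.05 chance fits were expected. They are lower bounds, and their Clopper-Pearson intervals cover counting error only, since reads carry no molecular identifiers. Log2 ratios carry a pseudocount of 1 RPKM, which understates differences of low genes. Scripts (Python 3.11.15, numpy 2.4.6, pandas 2.3.3, scipy 1.17.1) were tested on simulated data. The members and lists were chosen with earlier results of these data known. Named genes are all 10 members, the 3 highest of each lysosomal list, the highest of each marker list, genes behind a count of 5 or fewer, and Cd74. A gene that this rule takes is not reported here. Osteoclast markers other than Mmp9 and genes overlapping a member were added after their values were seen. Genes of like pattern were not sought, since 2 libraries give a correlation of 1 or -1 only. Alternatives were other minimums, pseudocounts and scalings, and each library alone.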

Additional observations from a re-analysis of the deposited data

How the results depend on the processing

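No paired analysis was possible because there is 1 group and no second group that shares its replicate numbers. With the highest member, Ctsd, left out, the cysteine cathepsins held 91.3% of the remaining summed RPKM, the aspartic class (then Ctse alone) 1.52%, Ctsa 6.03% and Lgmn 1.20%, by construction. From 1 library at a time the cysteine share was 66.9% without replicate 1 and 62.9% without replicate 2, and the median level of the 10 members 175 and 69.3 RPKM, beside 119 RPKM for the mean of both. The count of 10 detected members was 9 at a minimum of 5 RPKM, where Ctse fell out, and 10 at 0.5 RPKM. The count of 6 members at least 2-fold higher in replicate 2, and of 0 at least 2-fold lower, was the same under every minimum, scaling and pseudocount tried for it. The median log2 ratio of the members ran from 1.36 to 1.42 over its alternatives. Of 30 log2 ratios of single members under another pseudocount or scaling, 0 changed sign. The largest change was 0.404, that of Ctse with a pseudocount of 0.1. In 6 of the 30, in Ctsa, Ctsb, Ctsd and Ctse, the change reached the spread it was compared with. The other 24 counted as the same. With 1 library on each side, the difference itself cannot be checked by leaving a library out. Of the members with a counting interval, Ctsk had the widest in proportion to its fold difference. Each width depends on the smallest fitting read numbers, and true numbers may be multiples of them. The widths therefore do not rank the members by counting error.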

Other observations

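Ratios between members within a library, for pairs chosen after their values were seen, differed in how far they held between the libraries. The level of Ctss was 18.5 times that of Ctsk in replicate 2 and 19.5 times in replicate 1, and 2.44 and 2.83 times that of Ctsl. In contrast, Ctss stood at 1.30 times the level of Ctsz in replicate 2 and 0.401 times in replicate 1, and Ctsl at 2.60 and 0.824 times the level of Ctsa. These pairs describe 2 libraries, and no test was run.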
